A study of Mus musculus with 16 samples.

Results

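Serine made from glycolysis and the folate-bound carbon units released from it are handled by a short chain of enzymes, of which 10 are described here: Phgdh, Psat1 and Psph of serine synthesis, Shmt1, Mthfd1 and Aldh1l1 of the cytosolic folate pathway, and Shmt2, Mthfd2, Mthfd1l and Aldh1l2 of the mitochondrial folate pathway. They were taken as the rows of the count table that bear these symbols, and each symbol stood on 1 of 55450 rows. Bulk RNA-seq had been run on primary hepatocytes from mice of wild-type genotype in 4 groups of 4 libraries, 16 in all: untreated cells, cells given 10 mM sodium itaconate overnight, cells given a chemically defined mixture of fatty acids and cholesterol at a 1:10 dilution, and cells given both. All groups, the untreated one included, were kept in the same medium with serum, insulin, transferrin and selenium. The libraries of a group carry the letters A to D. The mice of the study were C57BL/6J males used at an age of 8 to 12 weeks, per its methods. Neither the labels nor the methods say whether a letter stands for a separate mouse, so that p-values measure the spread between these libraries, which may in part be technical.

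Serine synthesis starts from 3-phosphoglycerate, which Phgdh oxidizes. Psat1 then adds an amino group and Psph removes the phosphate. Serine hydroxymethyltransferases (Shmt1 in the cytosol, Shmt2 in mitochondria) split serine into glycine and a carbon unit carried by tetrahydrofolate. In mitochondria Mthfd2 oxidizes this unit, and Mthfd1l releases it as formate, which leaves for the cytosol, where Mthfd1 loads it onto folate again for the synthesis of purines, thymidylate and methionine. Aldh1l1 (cytosol) and Aldh1l2 (mitochondria) end the chain by oxidizing 10-formyltetrahydrofolate to carbon dioxide, with NADPH as the other product. The liver is a main site of folate metabolism, and Aldh1l1 is among the abundant folate enzymes of hepatocytes. Several of the genes, among them Phgdh, Psat1, Psph, Shmt2, Mthfd2 and Aldh1l2, are known in other cells as targets of ATF4, the transcription factor of the integrated stress response.

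The 10 genes lie at separate places of the mouse genome (GRCm38), and all are protein-coding in GENCODE release 21. On the minus strand are Phgdh (ENSMUSG00000053398.11, chr3:98313170-98339990), Psat1 (ENSMUSG00000024640.9, chr19:15904678-15947337), Psph (ENSMUSG00000029446.14, chr5:129765558-129787449), Shmt1 (ENSMUSG00000020534.14, chr11:60788104-60811718), Shmt2 (ENSMUSG00000025403.5, chr10:127517123-127522444), Mthfd2 (ENSMUSG00000005667.8, chr6:83305691-83325908) and Aldh1l2 (ENSMUSG00000020256.14, chr10:83487450-83534140). On the plus strand are Mthfd1 (ENSMUSG00000021048.7, chr12:76255298-76319803), Mthfd1l (ENSMUSG00000040675.17, chr10:3973118-4167081) and Aldh1l1 (ENSMUSG00000030088.15, chr6:90486427-90600203).

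Promoter windows were read from RefSeq (GRCm38.p6) as 250 bases before and 50 bases after each annotated start, and 9 of the 10 genes had one. These RefSeq starts are not always the outer ends of the GENCODE intervals above. For Psat1, Mthfd2 and Aldh1l1 they lie well inside the intervals, so that their windows are not those of the outermost starts. For Shmt1 the RefSeq start also lies inside, nearer to the outer end, which is still not in the window. The 120 bases directly before the start are printed for 3 genes that were higher with lipid (Phgdh, Psph and Mthfd2) and 3 that were lower (Shmt1, Mthfd1 and Aldh1l1), so that both sets can be read side by side. Each runs 5′ to 3′ along its gene, and capitals mark the letters of the motifs described after them.
Phgdh, minus strand, chr3:98339970-98340089: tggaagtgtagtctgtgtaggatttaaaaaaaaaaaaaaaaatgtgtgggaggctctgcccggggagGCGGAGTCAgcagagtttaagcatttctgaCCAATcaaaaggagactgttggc
Psph, minus strand, chr5:129787254-129787373: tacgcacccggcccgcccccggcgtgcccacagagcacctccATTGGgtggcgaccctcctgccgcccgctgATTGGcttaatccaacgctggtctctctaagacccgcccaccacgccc
Mthfd2, minus strand, chr6:83317605-83317724: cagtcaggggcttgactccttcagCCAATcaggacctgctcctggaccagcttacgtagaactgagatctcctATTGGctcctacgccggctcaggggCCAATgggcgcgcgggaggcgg
Shmt1, minus strand, chr11:60811266-60811385: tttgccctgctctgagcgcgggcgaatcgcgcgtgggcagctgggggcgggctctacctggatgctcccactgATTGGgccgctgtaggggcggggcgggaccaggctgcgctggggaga
Mthfd1, plus strand, chr12:76255112-76255231: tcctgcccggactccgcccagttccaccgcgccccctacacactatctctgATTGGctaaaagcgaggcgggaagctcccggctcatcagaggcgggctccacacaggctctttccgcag
Aldh1l1, plus strand, chr6:90550673-90550792: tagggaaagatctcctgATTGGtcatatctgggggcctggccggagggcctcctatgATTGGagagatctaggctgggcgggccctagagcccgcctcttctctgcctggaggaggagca

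The 300-base windows were searched for 4 motifs on both strands. The core of the C/EBP-ATF response element (TGATGNAA), to which ATF4 binds, and the E-box (CACGTG) were not in any window of the 9 genes, and stood in 3.97% and 7.15% of 32851 windows of the genome. That says only that these letters are not in these windows, since such elements can lie in introns, at another start of the gene or farther away. The core of the antioxidant response element (TGACNNNGC), held by 12.4% of all windows, stood in Phgdh from 53 to 45 bases before the start and in Psph from 4 to 12 bases after it, on the minus strand relative to the gene in both. The CCAAT box (CCAAT, or ATTGG on the other strand), a motif added after the windows had been read, stood before the start in 7 of the 9 genes. A match anywhere in the 300 bases was held by 37.4% of all windows, a share that counts windows and not genes. Both the genes that were higher with lipid and those that were lower had the CCAAT box, so that the match does not tell the 2 sets apart.

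The genes differ widely in level. In CPM (counts scaled to 1 library size for all samples) divided by the length of the gene's exons in kb, and averaged over the 16 libraries, Shmt2 stood highest at 105, followed by Aldh1l1 at 66.6. Psat1 (18.8), Mthfd1 (14.2), Mthfd2 (14.2), Mthfd1l (10.9) and Shmt1 (7.12) lay between, and Psph (4.16), Phgdh (4.04) and Aldh1l2 (1.63) were lowest. Mthfd1 and Mthfd2 cannot be ordered, nor can Psph and Phgdh. With the length of each gene's principal transcript in place of all its exons, Mthfd2 (23.8) came before Mthfd1 (19.5) and Psph (10.4) before Shmt1 (9.67), and the other ranks stayed. The enzyme that opens serine synthesis was thus 1 of the 3 lowest genes in these hepatocytes, and its next step, Psat1, was read several times more often per kb.

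**Figure D1:**
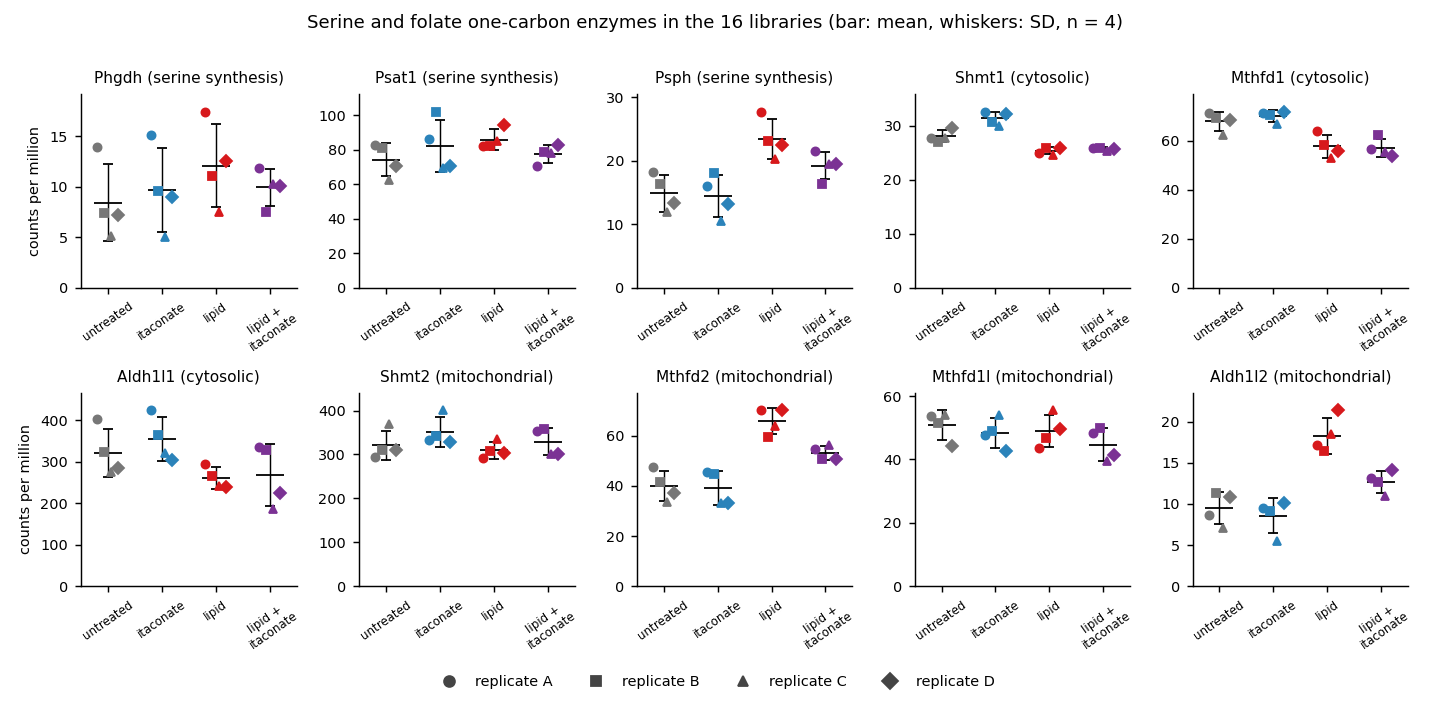
Level of each of the 10 genes (vertical axes, CPM, each from 0) in the 4 groups, with a point for each library, its shape giving the replicate letter, and a bar with whiskers for the mean and SD of 4 libraries. Aldh1l2 at 16.4 to 21.4 CPM and Mthfd2 at 59.5 to 70.3 CPM in lipid-treated libraries stand clear of the untreated ones, while Phgdh is spread more by letter than by treatment.

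Lipid against untreated asks what the fatty acid and cholesterol mixture did on its own. In edgeR's quasi-likelihood test with treatment and letter as terms, 7 of the 10 genes passed an adjusted p of 0.05, against 47.5% of the 11675 genes tested, so that a change with lipid was common among all genes. Of the 7, 4 were higher (23.8% of all genes) and 3 lower (23.7%). By role, 2 of 3 serine synthesis genes rose, all 3 cytosolic folate genes fell, and of the 4 mitochondrial genes 2 rose and 2 did not pass. In 4 genes the lipid libraries did not overlap the untreated ones, and 32.5% of all genes showed no overlap. The median log2 fold change of the 10 was 0.086, beside 0.0047 over all genes tested.

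Aldh1l2, the mitochondrial formyltetrahydrofolate dehydrogenase, changed most. It was at 8.70, 11.3, 7.11 and 10.8 CPM in untreated libraries A to D and at 17.2, 16.4, 18.5 and 21.4 CPM in lipid-treated ones. Every lipid library lay above every untreated one. The log2 fold change was 0.96 ± 0.12 (standard error), or 1.95-fold, with an adjusted p of 1.65e-05. Aldh1l2 had 186 to 323 counts per untreated library, the fewest along with Phgdh.

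Mthfd2, which oxidizes the folate-bound carbon unit in mitochondria, was at 47.6, 41.4, 33.7 and 37.0 CPM in untreated and at 70.3, 59.5, 64.0 and 70.3 CPM in lipid-treated libraries. Again the groups did not overlap, and the rise of 0.74 ± 0.092 on the log2 scale (1.67-fold, adjusted p = 1.19e-05) was seen in 4 of 4 letters. Its mitochondrial neighbours did not pass the test. Shmt2, which supplies the unit, was at 321 ± 33.2 CPM (SD, n = 4) untreated and 309 ± 18.4 CPM with lipid (log2 fold change −0.053 ± 0.070, adjusted p = 0.563). Mthfd1l, which releases formate, was at 50.9 ± 4.61 and 49.0 ± 5.10 CPM (−0.051 ± 0.084, adjusted p = 0.642). The difference within the mitochondrial pathway thus lay at Mthfd2 and Aldh1l2.

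Among the serine synthesis genes, Psph, the last step, rose by 0.66 ± 0.11 on the log2 scale (1.58-fold, adjusted p = 2.46e-04), from 18.2, 16.4, 11.9 and 13.3 CPM in untreated to 27.7, 23.1, 20.3 and 22.5 CPM in lipid-treated libraries, with no overlap. Phgdh, the first step, was at 13.9, 7.43, 5.10 and 7.20 CPM in untreated libraries A to D and at 17.4, 11.1, 7.53 and 12.5 CPM in lipid-treated ones. The groups overlapped because the letters differ: A was highest and C lowest in both. Within every letter Phgdh was higher with lipid, and the log2 fold change was 0.55 ± 0.17 (1.47-fold, adjusted p = 0.0155). This call needs the letter in the model, since without it the adjusted p was 0.202, and it also rose to 0.0536 without untreated replicate C and to 0.0594 without untreated replicate D. Psat1, the middle step, was at 74.2 ± 9.49 and 86.0 ± 5.87 CPM, higher in 3 of 4 letters, and did not pass (0.22 ± 0.10, adjusted p = 0.0742). Over 23 other settings it passed in 5, among them without untreated replicate A (0.0365), without lipid replicate B (0.0290) and without itaconate replicate B (0.0486).

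The 3 cytosolic folate genes fell, each in 4 of 4 letters and by less than the rises above. Aldh1l1 was at 402, 324, 274 and 285 CPM in untreated and at 293, 266, 240 and 239 CPM in lipid-treated libraries, which overlap across letters (−0.29 ± 0.082, 0.816-fold, adjusted p = 0.00820, and 0.167 without the letter in the model). Mthfd1, the cytosolic enzyme with 3 activities that feeds purine and thymidylate synthesis, went from 68.0 ± 3.84 to 57.8 ± 4.66 CPM (−0.24 ± 0.049, adjusted p = 9.83e-04). Shmt1 went from 27.8, 27.1, 27.7 and 29.6 CPM to 24.9, 26.0, 24.7 and 25.9 CPM without overlap. Its fall was the smallest of the 7 (−0.15 ± 0.047, 0.904-fold, adjusted p = 0.0192), and the call was lost in 6 of 23 other settings, 4 of them the removal of untreated replicate C (0.0503) or D (0.0723) or of lipid replicate A (0.0646) or D (0.0529).

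**Figure D2:**
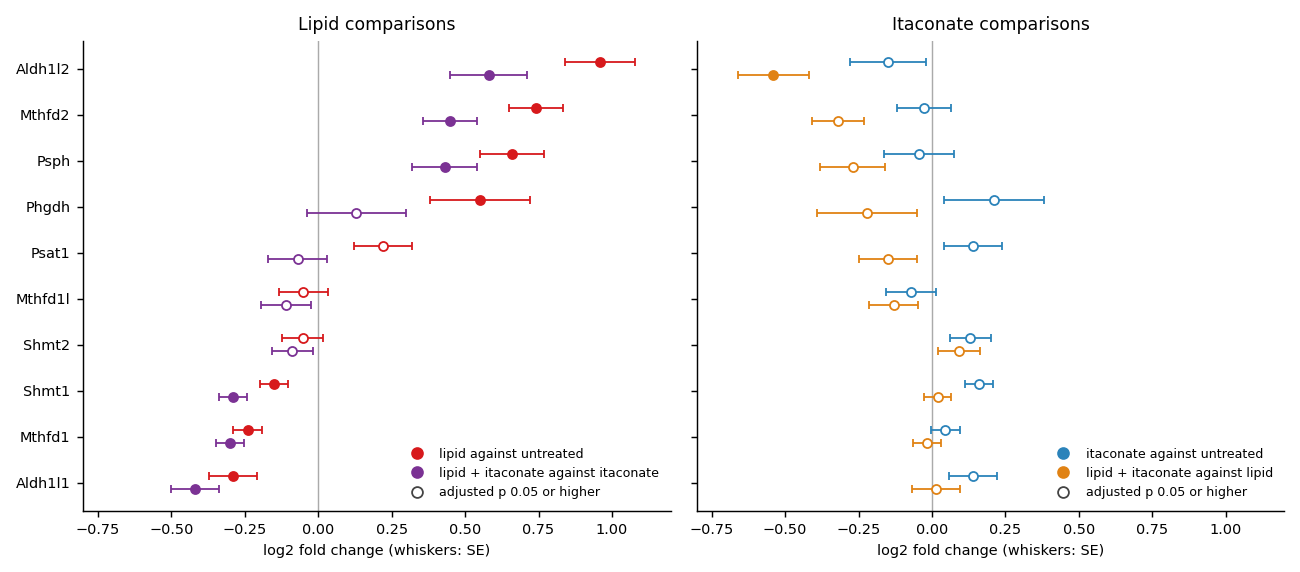
Log2 fold change of each gene with its standard error (horizontal axes) in the lipid comparisons (left) and in the itaconate comparisons (right), filled where the adjusted p is under 0.05. Aldh1l2, Mthfd2 and Psph lie to the right of 0 and Shmt1, Mthfd1 and Aldh1l1 to the left in both lipid comparisons, and Aldh1l2 in lipid + itaconate against lipid (−0.54) is the only filled point on the right.

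Lipid + itaconate against itaconate asks the same question in cells that also had itaconate, with 8 other libraries. In edgeR's test 6 of the 10 genes passed, beside 47.0% of all genes, 3 higher (23.5% of all genes) and 3 lower (23.5%). Aldh1l2 rose by 0.58 ± 0.13 on the log2 scale (49.7% higher, adjusted p = 0.00150), Mthfd2 by 0.45 ± 0.092 (1.37-fold, adjusted p = 9.98e-04) and Psph by 0.43 ± 0.11 (1.35-fold, adjusted p = 0.00603). Aldh1l2 was at 9.52, 9.15, 5.45 and 10.1 CPM with itaconate and at 13.1, 12.6, 10.9 and 14.1 CPM with both, and Mthfd2 at 45.5, 44.6, 33.1 and 33.3 CPM and at 54.8, 50.6, 56.2 and 50.7 CPM. Neither overlapped. Psph did, at 16.1, 18.1, 10.5 and 13.2 CPM against 21.5, 16.4, 19.5 and 19.5 CPM, and was higher in 3 of 4 letters, with replicate B going the other way (adjusted p = 0.0531 without the letter in the model).

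On the side of the falls, Aldh1l1 went from 424, 365, 321 and 304 CPM with itaconate to 335, 327, 185 and 225 CPM with both (−0.42 ± 0.082, 0.746-fold, adjusted p = 7.16e-04, and 0.0765 without the letter). Mthfd1 went from 70.1 ± 2.28 to 57.1 ± 3.77 CPM (−0.30 ± 0.048, adjusted p = 1.53e-04), and Shmt1 from 32.6, 30.7, 30.0 and 32.3 CPM to 25.9, 26.0, 25.3 and 25.7 CPM (−0.29 ± 0.047, adjusted p = 1.53e-04). Mthfd1 and Shmt1 did not overlap, which with Aldh1l2 and Mthfd2 makes 4 of the 10 genes, beside 31.4% of all genes. Phgdh, at 9.66 ± 4.14 and 9.96 ± 1.82 CPM, did not pass here (0.13 ± 0.17, adjusted p = 0.576), and neither did Psat1 (−0.070 ± 0.10), Shmt2 (−0.089 ± 0.070) or Mthfd1l (−0.11 ± 0.084). Lipid + itaconate replicate B stood apart from the rest of its group: the chi-square statistic of its counts against those of A, C and D was 106 to 147 per gene, where counting noise alone would give about 1, while the other 21 pairs of libraries within a group lay at 10.0 to 64.5. Without it the same 6 genes passed, with Psph at 0.55 (adjusted p = 5.40e-04) and Aldh1l1 at −0.52 (adjusted p = 4.35e-05).

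Mthfd2 and Aldh1l2 moved apart from their cytosolic partners with lipid. Ratios between partners within each library, per kb of exon, need no scaling between libraries. Mthfd2 to Mthfd1 had a mean log2 ratio of −0.43 ± 0.15 (SD, n = 4) in untreated, −0.51 ± 0.24 in itaconate, 0.54 ± 0.14 in lipid and 0.24 ± 0.14 in lipid + itaconate libraries. In the 8 libraries without lipid it lay between −0.76 and −0.24, and in the 8 with lipid between 0.045 and 0.68. Where 0 lies depends on the length used. With principal transcript lengths each value is 0.29 higher, and the libraries without lipid then run from −0.47 to 0.051 and those with lipid from 0.33 to 0.97, while the differences between groups stay as they are. Aldh1l2 to Aldh1l1 went from −5.82 ± 0.38 and −6.13 ± 0.40 to −4.56 ± 0.29 with lipid and −5.09 ± 0.38 with both: Aldh1l2 was read 0.0177 times as often as Aldh1l1 in untreated and 0.0425 times as often in lipid-treated cells. The lowest lipid + itaconate library (−5.43) lay just above the highest untreated one (−5.45). Shmt2 to Shmt1 (3.83 ± 0.16, 3.80 ± 0.18, 3.93 ± 0.10 and 3.99 ± 0.12 in untreated, itaconate, lipid and both) and Mthfd1l to Mthfd1 (−0.42 ± 0.17, −0.54 ± 0.19, −0.24 ± 0.26 and −0.35 ± 0.11) overlapped between all groups. Within letters, Shmt2 to Shmt1 was higher with lipid than untreated in 4 of 4 and with both than with itaconate in 3 of 4, and Mthfd1l to Mthfd1 in 3 of 4 each time. Mthfd1l to Mthfd1 was lower with itaconate than untreated in 4 of 4 letters. Mthfd2 to Mthfd1 and Aldh1l2 to Aldh1l1 were lower with both than with lipid in 4 of 4. In that comparison Shmt2 to Shmt1 was higher in 3 of 4 letters and Mthfd1l to Mthfd1 in 1 of 4. The ratios are given as descriptions, with no test.

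**Figure D3:**
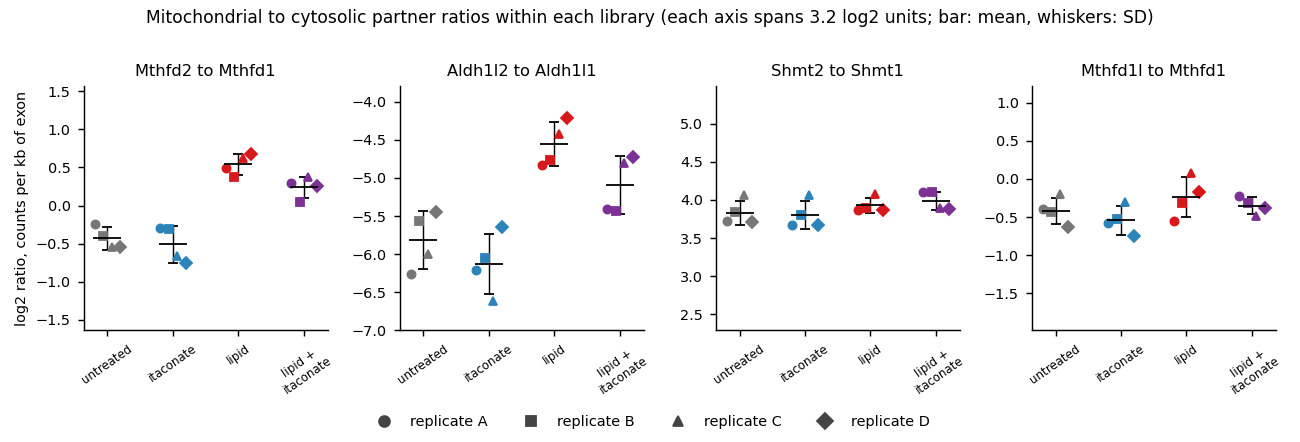
Log2 ratio of the mitochondrial to the cytosolic partner in counts per kb of exon (vertical axes, all of the same span) in each library of the 4 groups, shapes giving the letter and bars with whiskers the mean and SD of 4 libraries. Mthfd2 to Mthfd1 lies at −0.76 to −0.24 in the 8 libraries without lipid and at 0.045 to 0.68 in the 8 with lipid, whereas Shmt2 to Shmt1 stays between 3.67 and 4.10.

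Itaconate against untreated asks whether the metabolite, which macrophages make from cis-aconitate, moved these genes in cells without added lipid. In edgeR's test 0 of the 10 genes passed, beside 4.91% of all genes, and 1 had an unadjusted p under 0.05. DESeq2's Wald test also called 0. The estimates ran from −0.15 ± 0.13 (Aldh1l2) to 0.21 ± 0.17 (Phgdh). The gene with the low p was Shmt1, at 32.6, 30.7, 30.0 and 32.3 CPM with itaconate against 27.8, 27.1, 27.7 and 29.6 CPM untreated, and it was the 1 gene of the 10 whose groups did not overlap, beside 7.53% of all genes (0.16 ± 0.047, 1.12-fold, 4 of 4 letters, adjusted p = 0.0576). Its place beside the threshold depends on the settings: the adjusted p was 0.0483 when the TMM scaling factors were computed over all genes and not over those that passed the filter, 0.0319 with only the libraries compared in the model and 0.0440 without lipid + itaconate replicate C, and went up to 0.225 over the others. With only the libraries compared, Shmt2 (0.13, adjusted p = 0.0117) and Aldh1l1 (0.14, adjusted p = 0.0114) passed as well. In that setting 1865 of all genes passed, where the main model called 573.

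Lipid + itaconate against lipid asks what itaconate did in lipid-treated cells. Of the 10 genes 1 passed in edgeR's test, and it was lower, beside 2.58% of all genes called in either direction and 1.26% called lower. This was Aldh1l2, at 17.2, 16.4, 18.5 and 21.4 CPM with lipid and at 13.1, 12.6, 10.9 and 14.1 CPM with both (−0.54 ± 0.12, 0.689-fold, 0 of 4 letters higher, adjusted p = 0.0306). The libraries did not overlap. Of those with both, 3 lay above every untreated library, and replicate C at 10.9 CPM lay below the highest of them (11.3 CPM). The call rests on few libraries. The adjusted p was 0.291 with no term for the letter and 0.125 when the model held the libraries compared and no others, 0.0502, 0.0881 and 0.0904 without lipid replicate A, C or D, and 0.0836, 0.0813 and 0.0794 without lipid + itaconate replicate A, B or D. The estimate stayed between −0.63 and −0.40 in all of the 23 settings.

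Mthfd2 was lower with both than with lipid in 4 of 4 letters and without overlap (70.3, 59.5, 64.0 and 70.3 CPM against 54.8, 50.6, 56.2 and 50.7 CPM), but did not pass (−0.32 ± 0.090, adjusted p = 0.0736). It and Aldh1l2 were the 2 genes of the 10 without overlap, beside 5.82% of all genes. Over 23 other settings Mthfd2 passed in 3. These were DESeq2 (adjusted p = 0.0240), no filter on low counts (2.53e-05) and the removal of lipid + itaconate replicate C (0.0118). It did not pass in the rest, with an adjusted p of 0.354 without the letter in the model and 0.174 without lipid + itaconate replicate B. Psph was likewise lower in 4 of 4 letters (−0.27 ± 0.11, adjusted p = 0.223), as was Psat1 (−0.15 ± 0.10, adjusted p = 0.456). Without lipid + itaconate replicate C 5 genes passed: Phgdh (−0.49, adjusted p = 0.0184), Psph (−0.39, adjusted p = 0.0370), Mthfd2 and Aldh1l2 lower and Shmt2 (0.18, adjusted p = 0.0391) higher. Over all genes the count also rose there, from 301 in the main model to 889. Shmt1 (0.019 ± 0.047), Mthfd1 (−0.017 ± 0.049) and Aldh1l1 (0.015 ± 0.082), which had fallen with lipid, had estimates near 0.

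Whether the itaconate difference itself changed with lipid was tested by the interaction of both treatments. In edgeR's test 0 of the 10 genes passed, beside 0.00857% of all genes (1 gene), and 3 had an unadjusted p under 0.05. DESeq2's Wald test called 0 of the 10 as well. The estimates were all below 0 and ran from −0.43 ± 0.24 (Phgdh) to −0.037 ± 0.10 (Shmt2), with Aldh1l2 at −0.38 ± 0.18 and Mthfd2 at −0.29 ± 0.13. Their median was −0.18, beside 0.0043 over all genes. Since the 10 genes share the same 16 libraries, the common sign is not 10 separate results. Without lipid + itaconate replicate C, Shmt2 (0.055) and Mthfd1l (0.045) lay above 0. By letter, the interaction was below 0 in 4 of 4 for Psat1, Shmt1, Mthfd2 and Aldh1l2. Psat1 with itaconate was higher in 4 of 4 letters without lipid (74.2 ± 9.49 to 82.1 ± 15.1 CPM), though in D only from 70.6 to 70.7 CPM. With lipid it was lower in 4 of 4 (86.0 ± 5.87 to 77.7 ± 5.03 CPM). Its interaction of −0.29 ± 0.14 had an adjusted p of 0.581 and passed in 1 other setting, without the filter on low counts (0.0210). Aldh1l2 passed in the itaconate comparison with lipid and not in the one without, but the test of that difference did not pass (adjusted p = 0.566).

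The letters A to D move some of the genes as much as the treatments do. Averaged over the 4 treatments, Phgdh ran from 6.98 CPM (C) to 14.6 CPM (A), a span of 1.11 on the log2 scale, beside 0.56 between the treatments. Letter A was also highest and C lowest for Psph (20.9 and 15.5 CPM), Mthfd1 (65.8 and 59.4 CPM), Mthfd2 (54.6 and 46.7 CPM) and Aldh1l1 (364 and 255 CPM). Shmt2 and Mthfd1l were highest in C (352 and 50.9 CPM). These averages hide another order in the lipid + itaconate libraries. There C was lowest for Mthfd1l (39.4 CPM), and for Shmt2 it lay at 302 CPM, below A (354 CPM) and B (357 CPM). Phgdh in C was at 10.3 CPM there, and B was lowest at 7.50 CPM. For Aldh1l2 and Mthfd2 the treatments spanned more (1.13 and 0.77) than the letters (0.52 and 0.26).

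Phgdh, Mthfd2 and Aldh1l2 were each set against all 9643 genes of at least 5 CPM by the root mean square (RMS) difference of their log2 CPM over the 16 libraries, after the mean of each letter was taken off. Nearest to Mthfd2 came Ccn1 and Eif2b3, a subunit of the exchange factor on which the integrated stress response acts, and then Psph, each at an RMS difference of 0.10. Ccn1 and Eif2b3 had log2 fold changes of 0.67 and 0.63 with lipid. Aldh1l2 was nearest to Robo1 (0.15), Sh3rf1 (0.16) and Lmo7 (0.16), with Mthfd2 at rank 24 and Psph at rank 78. Phgdh was nearest to Ccdc125 (0.17), Atrnl1 (0.18) and Adcy9 (0.18), with Psph at rank 20, Mthfd2 at 139 and Psat1 at 166. Aldh1l2 and Phgdh differed by 0.36, which is rank 6512 in the order of Phgdh and rank 1375 in that of Aldh1l2. A gene with no change beside the letters would lie at 0.30 from Phgdh, 0.34 from Mthfd2 and 0.46 from Aldh1l2. Aldh1l1, Mthfd1, Shmt1 and Shmt2 stood at rank 6592 or farther in all 3 orders. These are descriptions over libraries that share their letters and treatments.

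The enzymes around the 10 genes were read from 6 lists of 50 other genes (folate cycle and transport, glycine cleavage, methionine and choline, transsulfuration, serine use and transport, purine synthesis), of which 48 were tested. With lipid 13 were higher, 13 lower and 22 not called, beside 47.5% of all genes called, and their median log2 fold change was 0.0056. In the folate list 5 of 13 tested were higher (23.8% of all genes), among them the folate carriers Slc19a1 (0.43 ± 0.070) and Slc46a1 (0.39 ± 0.052). In the same list 1 (Tyms, thymidylate synthase) was lower (−0.33 ± 0.11, adjusted p = 0.0255), beside 23.7% of all genes.

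Of the 4 glycine cleavage genes, whose mitochondrial complex yields the same carbon unit from glycine, Amt (0.82 ± 0.093, adjusted p = 4.69e-06; 15.9 ± 0.964 to 28.1 ± 2.86 CPM) and Gldc (0.49 ± 0.083) rose with lipid, Gcsh fell (−0.18 ± 0.047) and Dld did not pass. With both against itaconate Amt (0.79 ± 0.092) and Gldc (39.2 ± 8.88 to 65.6 ± 7.65 CPM, adjusted p = 4.26e-06) rose as well. Of 12 methionine and choline genes 1 rose and 6 fell, beside 23.8% and 23.7% of all genes, with a median of −0.24 beside −0.21 for 10 hepatocyte markers, a shift whose part in it was not tested. Mat2a, the form of S-adenosylmethionine synthetase found mainly outside the liver, rose (0.64 ± 0.047, adjusted p = 6.01e-08; 205 ± 15.3 to 320 ± 23.9 CPM), and the falls were in Bhmt, Chdh, Dmgdh, Sardh, Pemt and Nnmt, mostly genes of the choline and betaine route of the liver. Chdh, which starts the oxidation of choline, fell by 0.64 ± 0.10 with lipid. With both against itaconate it fell by 0.79 ± 0.10 (88.0 ± 20.7 to 49.8 ± 4.29 CPM), where 9 of the 12 were lower and 1 higher (23.5% of all genes each, and a median of −0.35 beside −0.21 for the hepatocyte markers). Cbs, the first transsulfuration enzyme, fell by 0.34 ± 0.058.

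In serine use and transport 4 of 11 were higher and 3 lower with lipid, beside 23.8% and 23.7% of all genes. The amino acid carrier Slc38a2 fell by 0.49 ± 0.039 (242 ± 27.5 to 173 ± 23.0 CPM). It was also the 1 gene of the 48 that passed in both itaconate comparisons, higher each time: by 0.27 ± 0.039 without lipid (adjusted p = 0.00115) and by 0.19 ± 0.039 with it (adjusted p = 0.0193), in 4 of 4 letters. Of the 6 purine genes Adsl rose and Atic fell with lipid, and Ppat, the committing step of purine synthesis, was higher with itaconate alone (48.3 ± 0.417 to 54.1 ± 1.77 CPM, 0.16 ± 0.041, adjusted p = 0.0338). With itaconate alone 2 of the 48 genes passed (Slc38a2 and Ppat), beside 4.91% of all genes. With lipid + itaconate against lipid 1 of the 48 passed (Slc38a2), beside 2.58% of all genes.

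Of 20 genes of the amino acid response governed by ATF4, 18 were tested. With lipid 10 were higher (23.8% of all genes) and 2, Cebpb and Cebpg, lower (23.7%), with a median of 0.24 beside 0.0047 over all genes. With both against itaconate 8 were higher and 3 lower (23.5% of all genes each). With itaconate against untreated Cebpg was higher (0.18 ± 0.044, adjusted p = 0.0266) and Slc7a11, the cystine carrier, lower (−0.26 ± 0.064, adjusted p = 0.0317), beside 4.91% of all genes called. Asns, asparagine synthetase, rose from 35.1 ± 3.43 to 50.1 ± 2.96 CPM (0.52 ± 0.092, adjusted p = 2.98e-04), Trib3, a pseudokinase induced by stress, from 107 ± 8.21 to 141 ± 22.3 CPM (0.39 ± 0.052), and Chac1, which degrades glutathione, from 13.0 ± 4.56 to 21.1 ± 4.04 CPM (0.74 ± 0.14). Atf4 itself was at 297 ± 13.9 and 300 ± 18.8 CPM (0.013 ± 0.048, adjusted p = 0.846) and Ddit3 at 30.8 ± 7.37 and 32.2 ± 7.70 CPM (0.067 ± 0.087, adjusted p = 0.550). Asns was the 1 gene of this list that passed in lipid + itaconate against lipid, and like Aldh1l2 it was lower (−0.37 ± 0.091, adjusted p = 0.0429). ATF4 is largely governed in translation, which mRNA counts do not show, and its part in these changes was not tested.

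**Figure D4:**
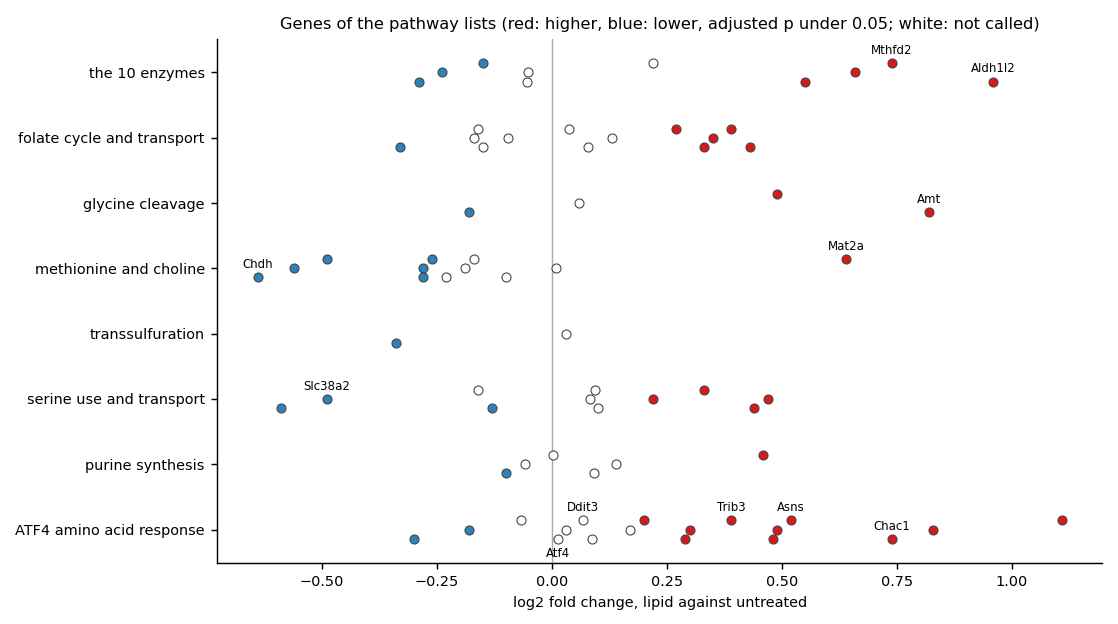
Log2 fold change in lipid against untreated (horizontal axis) of each tested gene, a point per gene, in the 10 enzymes and in 7 lists (vertical axis), red where higher and blue where lower at an adjusted p under 0.05 and white otherwise. The methionine and choline genes lie mostly below 0 with Mat2a at 0.64 on the other side, and the ATF4 genes lie mostly above 0.

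Marker genes were read in the same libraries. The summed level of 10 hepatocyte markers ran from 35243 to 61695 CPM over the 16 libraries, with all 10 found in every group, and its median per group was 48163 CPM untreated, 50574 with itaconate, 42765 with lipid and 45958 with both. With lipid 4 of these 10 markers fell and 0 rose, where 23.7% of all genes were lower and 23.8% higher. Their median log2 fold change was −0.21, beside −0.29 for Aldh1l1 and −0.24 for Mthfd1. The sum of 10 macrophage markers had medians of 235, 217, 298 and 276 CPM in the same order, with 1 of the 7 tested higher and 3 lower with lipid. That of 7 endothelial markers lay between 11.6 and 23.4 CPM, that of 7 stellate cell markers between 16.2 and 25.6 CPM, and that of 6 cholangiocyte markers, with Cftr at 0 in every library, had medians of 695, 595, 370 and 396 CPM, and both that were tested fell with lipid. The sum of 9 proliferation genes had medians of 38.9, 33.7, 42.3 and 44.5 CPM. With both against itaconate, where 23.5% of all genes were higher and 23.5% lower, 1 of the 10 hepatocyte markers rose and 6 fell (median −0.21). Of 7 macrophage markers 1 rose and 6 fell (median −0.77). Both cholangiocyte markers, 1 of 5 endothelial markers and the 1 stellate cell marker tested fell, and 2 of 4 proliferation genes rose. The part of these shifts in the changes of the 10 genes was not tested. In bulk RNA fewer cells of a type and less RNA per cell cannot be told apart.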

How the data were processed

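The authors trimmed reads with Cutadapt 1.18, aligned them to mm10 with STAR 2.7.0f in 2 passes and quantified GENCODE genes with RSEM 1.3.1; the deposited values are expected counts per gene, without normalization. Their own normalization, filter and removal of an unnamed batch came later and were not used. Here the expected counts were rounded (5.41% of values, and 10 of the 160 member values, were not whole). Totals per library ran from 22346049 to 35512004. Genes averaging 1 CPM or more over the 16 libraries were kept, TMM factors were computed on them with edgeR 4.0.16 (R 4.3.3), and a quasi-likelihood model with treatment and letter was fitted to all 16 libraries, with Benjamini-Hochberg adjustment over 11675 genes and a threshold of 0.05. TMM factors had first been computed over all genes before the filter. The order given here was set after both results had been seen, to follow an earlier processing of these data, and it decides the call of Shmt1 with itaconate.

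The letters were kept in the model because libraries that share a letter departed from their group means together in all 24 pairs (correlations of 0.144 to 0.469), while 72 pairs of other letters ran from −0.436 to 0.178 with a median of −0.114. The members, the lists and the tests were chosen with earlier results of these data known. Named besides the 10 members are, per comparison, up to 3 list genes of at least 5 CPM with the largest change past the threshold, 5 ATF4 genes and the 3 nearest profiles of Phgdh, Mthfd2 and Aldh1l2; any other list gene was picked for naming with its values known. A gene of the folate list is not reported here and was left out of the list counts. Ddit3 stands on 2 rows, of which the higher was used. Levels are CPM on TMM-scaled library sizes, and 0.5 was the prior count for log2 CPM. The alternatives were no letter, RLE, no filter, filterByExpr, DESeq2 1.42.0, only the libraries compared, each library left out, TMM over all genes and principal transcript lengths, the latter pair added after the data were seen.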

Additional observations from a re-analysis of the deposited data

How the results depend on the processing

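Over 23 other settings, the calls of Aldh1l2, Mthfd2, Psph and Mthfd1 in lipid against untreated and of Aldh1l2, Mthfd2, Shmt1 and Mthfd1 in lipid + itaconate against itaconate kept their direction and side of the threshold. The count of the 10 genes called with lipid was 5 without the replicate block (the letter in the model), 7 in the other settings that left out no library and 5 to 8 with 1 library left out. With both against itaconate it was 4 without the block and 6 otherwise. In itaconate against untreated the count was 0, but 3 with only the libraries compared and 1 with TMM over all genes, and 0 to 1 with 1 library left out. In lipid + itaconate against lipid the 1 call became 0 without the block and with only the libraries compared, 3 without the filter and 2 with DESeq2, and 0 to 5 with 1 library left out. For the interaction it was 1 without the filter.

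Over all genes, the count of 5546 with lipid was 4149 without the block and 4717 to 6003 with 1 library left out. That of 5483 with both against itaconate was 3990 without the block and 4530 to 5559 with 1 library left out. The count of 573 with itaconate was 23 without the block, 1091 without the filter, 1865 with only the libraries compared and 149 to 1047 with 1 library left out. The count of 301 with both against lipid was 9 without the block, 725 without the filter, 512 with DESeq2, 13 with only the libraries compared and 59 to 889 with 1 library left out. For the interaction, the count of 1 was 0 without the block, 2 with RLE, 231 without the filter, 2 with filterByExpr, 36 with DESeq2, 2 with TMM over all genes and 0 to 8 with 1 library left out. The cause was not tested. The block changed no other call than those given in the report.

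The 21 values that changed sign all came from leaving out 1 library, and none was called (the lowest adjusted p was 0.370). With 1 library left out, the log2 fold changes concerned ran as follows. In itaconate against untreated they ran from −0.18 to 0.040 for Psph and from −0.11 to 0.038 for Mthfd2. In lipid + itaconate against lipid they ran from −0.0005 to 0.037 for Shmt1, from −0.057 to 0.019 for Mthfd1 and from −0.086 to 0.12 for Aldh1l1. In lipid against untreated they ran from −0.12 to 0.024 for Mthfd1l. In lipid + itaconate against itaconate they ran from −0.13 to 0.28 for Phgdh, from −0.15 to 0.026 for Psat1 and from −0.16 to 0.0046 for Shmt2. In the interaction they ran from −0.11 to 0.055 for Shmt2 and from −0.14 to 0.045 for Mthfd1l. Phgdh and Aldh1l2 had the fewest counts per library, 133 to 428 and 145 to 634. With principal transcript lengths the mean log2 ratio of Mthfd2 to Mthfd1 was −0.14 untreated, −0.22 with itaconate, 0.83 with lipid and 0.53 with both, and that of Mthfd1l to Mthfd1 was −0.60 untreated and −0.54 with both, shifts of 0.29 and −0.18 in every library. The other 10 mean ratios moved by less than 1 SD.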
